A study of Salmo salar with 18 samples.

Results

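The gill response of Atlantic salmon (Salmo salar) fed the control diet was followed from the unstressed state to 6 h after an acute stress, using the 3 libraries of CD fish at 6 h post-stress and the 3 libraries of CD fish at pre-stress. These are 6 of the 18 libraries of the series, and they were chosen by their labels. Pre-smolts of the Gain genetic line ate a commercial-like diet (CD), or the same diet with a hydrolyzed Debaryomyces hansenii yeast product (LAN4), for 7 weeks and during 1 week of acclimatization. The post-stress fish had been netted out of the water for 1 min and put back, which the study calls hypoxia stress, and the pre-stress fish had not. The study sequenced gill RNA of 3 fish per diet and time, and the other groups were CD at 1 h and LAN4 at pre-stress, 1 h and 6 h. Each diet had 7 tanks of 6 fish for the stress test, and the tanks of the sequenced fish are not given in the labels, so tank and hour of the day cannot be told apart from the time after stress.

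The counts of the 6 h libraries stop partway along the genome. The comparison was therefore made on the 42615 of 69389 listed genes that lie on chromosomes 1 to 6, 9 to 16, 19 and 20 of the SSAL_v3.1 assembly. On these 16 chromosomes the CD libraries held 9745405 to 12355858 counted fragments at pre-stress and 12605593 to 14542132 at 6 h. The share of genes with at least 1 count on a chromosome was 61.8% to 73.7% at pre-stress and 61.5% to 74.8% at 6 h. The pre-stress and 6 h libraries were read on sequencing lane 3 according to the file headers, and the 1 h libraries on lane 1. Genes of the gill's ion-transporting cells were present in each of the 6 libraries, with slc12a2, the sodium-potassium-chloride cotransporter of ionocytes, at 608 to 1072 CPM (counts scaled to a common library size) and foxi3a, a forkhead factor of ionocyte precursors, at 75.4 to 178 CPM. In whole gill tissue, fewer cells of a type and less RNA per cell cannot be told apart.

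The gill is the organ of gas exchange, ion regulation, acid-base balance and nitrogen excretion of a fish, and it lies in direct contact with the water. Handling and air exposure release catecholamines and then cortisol, the main glucocorticoid of teleosts, and cells answer within minutes to hours with immediate early transcription factors such as those of the AP-1 family. Later changes commonly include chaperones, genes of protein and energy turnover, and genes of growth and cell division.

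Of 23153 genes with enough counts to be tested, 418 were higher at 6 h and 301 were lower at an adjusted p under 0.05 in the quasi-likelihood test of edgeR. The shares were 1.81% and 1.3% of the genes tested, or 3.11% in either direction. Most changes were modest, with a median size of 0.65 on the log2 scale for the upregulated genes and 0.70 for the downregulated genes, and 99 and 61 of them, respectively, exceeded a change of 2-fold. The 3 fish of each group did not overlap in 707 of the 719 called genes, against 21.9% of all genes tested. A call with 3 fish per group favours groups that do not overlap, so this count adds no support of its own. The count of calls depended on single fish, with 160 higher and 89 lower without CD pre-stress fish 2, 154 and 78 without CD pre-stress fish 3, 203 and 133 without CD 6 h fish 1, and 350 and 142 without CD 6 h fish 2. Of all calls, 156 were made without each of the 6 libraries in turn, 110 of them higher and 46 lower. With only the 6 CD libraries in the model the counts were 77 and 30.

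**Figure D1:**
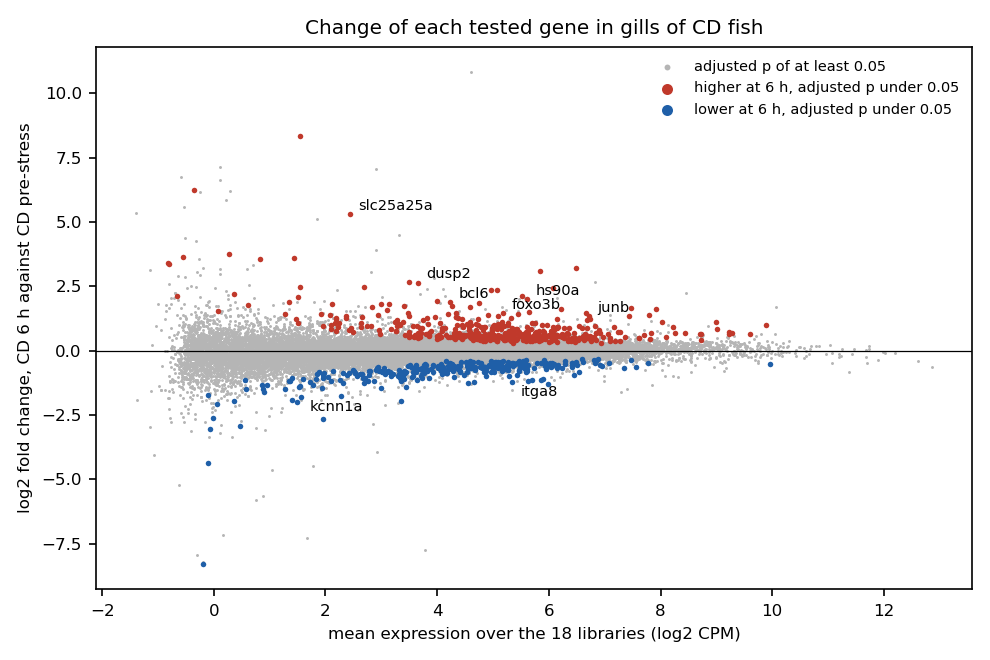
Log2 fold change of CD 6 h against CD pre-stress (vertical axis) against mean log2 CPM over the 18 libraries (horizontal axis) for the 23153 tested genes. The 418 genes called higher are in red and the 301 called lower in blue, and slc25a25a, at a log2 fold change of 5.31, lies far above the other labelled genes.

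Only 141 of the 719 called genes carry a gene symbol, 90 higher and 51 lower. A further 466 have only a LOC number and 112 had no RefSeq match, so the genes named here are the annotated minority. Named genes were the 12 largest increases and the 12 largest decreases with a symbol, the 2 largest of each without, and called members of 17 gene lists. The largest changes had to be called and not overlap between the groups, so the separation of the groups at these genes was set by the rule.

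The gene with the largest increase among those with a symbol was slc25a25a (ENSSSAG00000075765, chromosome 20, 19603407 to 19610249), a mitochondrial carrier that exchanges ATP-magnesium for phosphate across the inner membrane. Its level was 0.336, 0.401 and 0.204 CPM in the 3 pre-stress fish and 17.3, 7 and 15 CPM in the 3 fish at 6 h. The gene was thus close to silent before stress, at 4, 5 and 2 counts, and was read 97 times or more in every fish at 6 h. The fold change was 5.31 on the log2 scale (SE 0.48, edgeR adjusted p = 1.88e-05), and the call was made in each of the 16 alternative settings tried. At 1 h its mean level in CD fish was 0.777 CPM (SD 0.317, n = 3), so the high level at 6 h had not been reached then.

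Hsp90-alpha, hs90a (ENSSSAG00000063834, chromosome 15, 52296586 to 52306094), is the stress-inducible cytosolic chaperone of the Hsp90 family. It was at 33.3, 27.7 and 20 CPM before stress and at 157, 70.4 and 98.3 CPM at 6 h. All 3 fish at 6 h lay above all 3 at pre-stress, as the naming rule required, with a log2 fold change of 2.00 (SE 0.24, edgeR adjusted p = 0.000549). The related hsp90ab1, the constitutive Hsp90-beta, was at 2667 to 3028 CPM before stress and 2810 to 3468 CPM at 6 h, and the 2 groups overlapped. The symbol hs90a is not among the names of the heat shock and chaperone list. An unadjusted edgeR p under 0.05 was seen in 4 of the 16 tested members of that list, beside 17.7% of all genes tested. Of the 16, 0 were called by edgeR, beside 3.11% of all genes tested. EdgeR called 1 of them without CD pre-stress fish 1, and DESeq2 called 0 of them on the 6 CD libraries and 2 on all 18. Among them the constitutive Hsc70 gene hspa8 had 4291 to 4846 CPM before stress and 3240 to 5947 CPM at 6 h, and the Hsp70 gene hspa1b stayed at 0.722 to 2.04 CPM in all 6 fish. The median log2 fold change of the list was 0.07, beside 0.01 over all genes tested.

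Transcription factors and regulators of immediate early type formed the list with the most calls. AP-1 is a dimer of Jun and Fos family proteins that binds DNA in response to growth factors and stress. The AP-1 subunit jun (chromosome 10, 30343488 to 30346180) was at 8.56, 10 and 5.6 CPM before stress and 27.8, 12.7 and 23.9 CPM at 6 h, with fish 2 at 6 h closest to the unstressed range (log2 fold change 1.40, SE 0.24, edgeR adjusted p = 0.00529). Its relative junb was at 48.2, 28.9 and 24.2 CPM and then 102, 57.5 and 99.1 CPM (log2 fold change 1.35, SE 0.26, edgeR adjusted p = 0.0115). The groups did not overlap for either gene, as the naming rule required. The orphan nuclear receptor nr4a3 rose from 17.6 to 24.1 CPM to a range of 32.3 to 48.1 CPM, with a log2 fold change of 0.97 (SE 0.20). The zinc finger gene tisb, whose product speeds the decay of AU-rich mRNAs, rose from 128 to 183 CPM to a range of 225 to 290 CPM (log2 fold change 0.67, SE 0.13). These were the 4 of 19 tested members that were called, beside 3.11% of all genes tested. Of the 19, 17 had a higher mean at 6 h, beside 11742 of the 23153 genes tested. The list's median log2 fold change was 0.54. Its count was 1 without CD pre-stress fish 2 or without CD pre-stress fish 3, 2 without CD 6 h fish 1, 8 without CD pre-stress fish 1 and 7 without CD 6 h fish 2, and it was 0 on the 6 CD libraries alone and 7 with DESeq2 on all 18.

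Another signalling gene, dusp2, encodes a nuclear phosphatase that switches off MAP kinases and is itself induced by them in mammals. Its level was 7.98, 1.84 and 1.93 CPM at pre-stress and 30.1, 12.6 and 31.6 CPM at 6 h. Pre-stress fish 1 stood above its group and still lay below the lowest fish at 6 h, and the log2 fold change was 2.64 (SE 0.45, edgeR adjusted p = 0.00642). The pseudokinase gene trib1 rose from 5.29 to 5.6 CPM to a range of 8.44 to 10.1 CPM (log2 fold change 0.81, SE 0.17). The small regulator tcima, named for transcriptional and immune response regulation, was at 3.29 to 3.86 CPM before and 5.63 to 13.8 CPM after (log2 fold change 1.35, SE 0.27), and that call was lost without CD pre-stress fish 2 or 3 or CD 6 h fish 1, with an edgeR adjusted p of up to 0.0671.

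The forkhead gene foxo3b and the autophagy gene ulk1a rose as well. The gene foxo3b (chromosome 6, 72766789 to 72858661) encodes a FoxO factor, a class that is held back by insulin signalling and drives genes of autophagy and protein breakdown in vertebrates. It was at 19.7, 22.1 and 24 CPM before stress and at 65.6, 40.7 and 73.5 CPM at 6 h. Its groups were well apart, with a log2 fold change of 1.45 (SE 0.19, edgeR adjusted p = 0.000751). The gene ulk1a, for the kinase that starts autophagy, was at 52.4, 55.4 and 53.7 CPM before and 111, 92.9 and 105 CPM after, and its log2 fold change was 0.94 (SE 0.12, edgeR adjusted p = 0.000549). Both calls were made without each of the 6 libraries in turn. They were the only called members of the protein degradation and atrophy list, 2 of 16, beside 3.11% of all genes tested. The list's median was 0.14 on the log2 scale. The glucocorticoid list had 4 tested members, of which foxo3b was called, the other FoxO gene foxo1a had 19.5 to 24.7 CPM before and 24.2 to 40.5 CPM at 6 h, cebpb had 19.8 to 56.5 and 42.4 to 88.2 CPM, and pdk2a overlapped throughout. Among genes chosen after their values were seen, nupr1b, a small stress-induced chromatin protein, went from 64.7 to 67.9 CPM to a range of 118 to 139 CPM (log2 fold change 0.94, SE 0.13, edgeR adjusted p = 0.000759), and sik2b, a salt-inducible kinase, went from 37.6 to 44.1 CPM to a range of 71.7 to 89.3 CPM (log2 fold change 1.00, SE 0.16).

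Genes of the endoplasmic reticulum and amino acid supply changed in the same direction where they were called. In the list of the unfolded protein and integrated stress response, 3 of 17 tested members were called higher, beside 1.81% of all genes tested. A higher mean was seen in 15 of them, beside 11742 of the 23153 genes tested. The list's median log2 fold change was 0.15. The amino acid transporter slc7a5, the catalytic part of the large neutral amino acid exchanger, was at 33, 24.5 and 26.8 CPM and then 61.8, 35.9 and 52.1 CPM (log2 fold change 0.83, SE 0.20, edgeR adjusted p = 0.0342). The gene herpud1, which serves degradation of misfolded proteins at the reticulum, was at 31.3 to 35.4 CPM and then 43.2 to 48.5 CPM, with a log2 fold change of 0.42 (SE 0.10, edgeR adjusted p = 0.0254). The trib1 gene given above was the other member. The transcription factor atf4 itself had 69.4 to 75.4 CPM before stress and 77.7 to 79.2 CPM at 6 h and was not called (edgeR adjusted p = 0.787). The count was 0 without CD pre-stress fish 2, CD pre-stress fish 3 or CD 6 h fish 1 and 1 without CD 6 h fish 3. It was also 0 on the 6 CD libraries alone and 1 on the 12 libraries of pre-stress and 6 h, and it was 5 with DESeq2 on all 18.

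Insulin-like growth factor binding proteins carry IGFs and limit or prolong their action, and 2 of them moved in opposite directions. For igfbp3 the levels were low, at 0.839, 0.641 and 0.917 CPM before stress and 3.37, 1.8 and 3.72 CPM at 6 h, which are 8 to 10 counts and 25 to 48 counts. The groups did not overlap, as the naming rule required, and the log2 fold change was 1.89 (SE 0.33, edgeR adjusted p = 0.00492). By contrast igfbp-6b2 (chromosome 13, 40981322 to 41063243) had 107, 92.8 and 76.7 CPM before stress and 25.9, 53 and 33.4 CPM at 6 h, so that the highest fish at 6 h lay below the lowest unstressed fish (log2 fold change -1.30, SE 0.32, edgeR adjusted p = 0.0438). The fall of igfbp-6b2 passed the threshold without CD 6 h fish 2 and not without any other of the 6 libraries, with an edgeR adjusted p of up to 0.143.

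**Figure D2:**
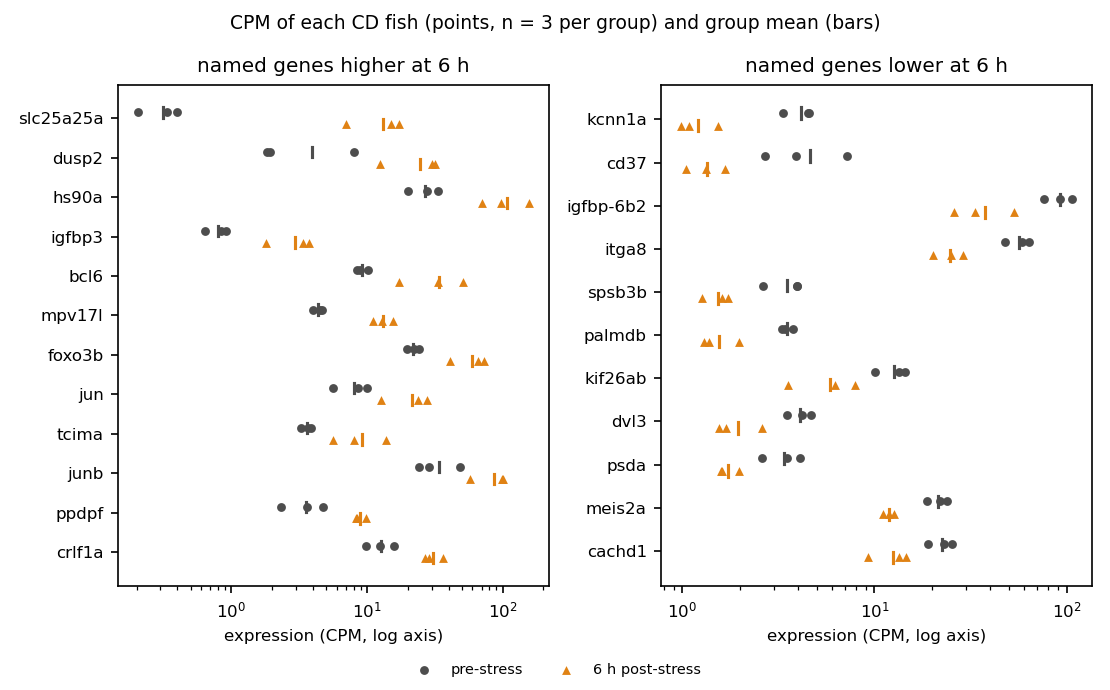
CPM on a log axis (horizontal) of each CD fish for the named genes that rose most and those that fell most (vertical), with circles for pre-stress and triangles for 6 h post-stress and bars for group means (n = 3). The points of the 2 groups do not overlap for any of these genes, as the naming rule required. Among the fish at 6 h, fish 2 was the lowest for each of the genes that rose.

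The transcriptional repressor bcl6, known in mammals for germinal centre B cells and for restraining inflammatory genes, was at 8.48, 10.2 and 8.96 CPM before stress and 51, 17.3 and 33.4 CPM at 6 h. Its unstressed fish lay close together and its fish at 6 h were spread over a wide range above them (log2 fold change 1.88, SE 0.29, edgeR adjusted p = 0.00274). The cytokine receptor-like gene crlf1a rose from 9.78 to 15.8 CPM to a range of 26.7 to 36.7 CPM (log2 fold change 1.27, SE 0.23). In the inflammation and cytokine list 1 of 16 tested members was called, beside 3.11% of all genes tested, namely ptges, the microsomal enzyme that makes prostaglandin E. It was at 16.4, 19.1 and 14.4 CPM and then 37, 33.9 and 28.7 CPM, with a log2 fold change of 1.00 (SE 0.17, edgeR adjusted p = 0.00371). The cyclooxygenase ptgs2b upstream of it overlapped between the groups, at 13.4 to 30.2 CPM and 19.5 to 22.4 CPM. The chemokine il8 had 1.93, 2.08 and 3.06 CPM before stress and 4.5, 6.93 and 5.66 CPM at 6 h (edgeR adjusted p = 0.093). Its groups did not overlap, as in 21.9% of all genes tested. The count of this list was 3 without CD pre-stress fish 1 and 2 without CD 6 h fish 3, and DESeq2 called 3 members on the 6 CD libraries and 4 on all 18. The leukocyte tetraspanin cd37, a B cell marker in mammals, was lower at 6 h, at 2.69, 3.93 and 7.23 CPM before and 1.34, 1.66 and 1.05 CPM after (log2 fold change -1.75, SE 0.42, edgeR adjusted p = 0.0319). Of the 4 tested B cell markers 3 had a lower mean at 6 h, but btk and pou2af1 changed little, with log2 fold changes of -0.16 and -0.05. The remaining marker, cd79b, a part of the B cell receptor, had 14.7 to 16.6 CPM before and 22.5 to 24.1 CPM at 6 h (edgeR adjusted p = 0.086). Of these 4 markers DESeq2 called 1 higher and 1 lower, both on the 6 CD libraries and on all 18. The cd37 call was made only when no library or CD pre-stress fish 1 was left out, with an adjusted p of up to 0.182 otherwise. In the interferon list 0 of 15 members were called by edgeR, beside 3.11% of all genes tested, and 0 by DESeq2. Of the 15, 2 had an unadjusted edgeR p under 0.05, beside 17.7% of all genes tested.

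The ionocyte factor foxi3a, which in zebrafish specifies ionocyte precursors, rose from 83.5, 75.4 and 89.6 CPM to 153, 145 and 178 CPM. Each fish at 6 h was well above each unstressed fish, and the log2 fold change was 0.94 (SE 0.19, edgeR adjusted p = 0.0137), with an adjusted p of 0.072 without CD pre-stress fish 2. The proton pump subunit atp6v0cb of the V-type ATPase rose from 175 to 221 CPM to a range of 256 to 300 CPM (log2 fold change 0.43, SE 0.11). These were the 2 called of 18 tested members of the ion and acid-base transport list, beside 3.11% of all genes tested. The list's median log2 fold change was -0.04, and its count was 0 without CD pre-stress fish 2 and 1 without CD pre-stress fish 3, CD 6 h fish 2 or CD 6 h fish 3. The cotransporter slc12a2 was not called and had 887 to 1072 CPM before and 608 to 925 CPM at 6 h. The apical sodium-chloride cotransporter slc12a3 had 8.97 to 15.1 and 8.92 to 12.6 CPM, and the ammonia channel rhbg had an edgeR adjusted p of 0.945. Among genes chosen after their values were seen, the tight junction claudin cldn8.1 went from 39.4 to 41.8 CPM to a range of 58.5 to 81.3 CPM (log2 fold change 0.78, SE 0.18), and grhl3, a Grainyhead-like factor of surface epithelia, went from 49.9 to 67.1 CPM to a range of 80.3 to 91.6 CPM (log2 fold change 0.60, SE 0.12). The cldn8.1 call was made without 2 of the 6 libraries and the grhl3 call without 4. The desmosomal gene pkp3 had a log2 fold change of -0.51 and the claudin cldni 0.02, and neither was called.

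The clock list gave its single call, of 11 tested members and beside 3.11% of all genes tested, to rorca. This is a ROR nuclear receptor of the class that binds clock promoters. It was at 32.1, 33.4 and 32.6 CPM before stress and 20.4, 17.1 and 19.4 CPM at 6 h. Both groups were tight and far apart for their size, with a log2 fold change of -0.78 (SE 0.09, edgeR adjusted p = 0.000277) that was called without each of the 6 libraries in turn. The other 10 tested clock members were not called, among them per2 at 8.66 to 9.07 CPM and then 8.15 to 14.9 CPM, and bhlhe41 at 4.79 to 7.21 CPM and then 8.08 to 12.7 CPM (edgeR adjusted p = 0.122). Most of the list went the other way from rorca, with a higher mean at 6 h in 8 of 11 members, beside 11742 of the 23153 genes tested. The list's median log2 fold change was 0.28. At an unadjusted edgeR p under 0.05, 4 members were higher and 1 was lower, beside 17.7% of all genes tested in either direction. DESeq2 called 1 lower and 0 higher on the 6 CD libraries, and 1 lower and 1 higher on all 18. Of clock-related genes chosen after their values were seen, nocta, the nocturnin gene, went from 8.66 to 19.1 CPM to a range of 25.3 to 31.4 CPM (log2 fold change 1.04, SE 0.23). The nocta call was made without 3 of the 6 libraries. The part of the time of day in these values was not tested.

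Of 6 subunits of the replicative helicase 3 were called lower at 6 h. The MCM2 to MCM7 proteins form the ring that unwinds DNA at replication forks, and mcm2 was at 93.7, 100 and 93.7 CPM before stress and 57.7, 64.4 and 57.7 CPM at 6 h. The subunit mcm5 was at 38.4, 36.9 and 34.5 CPM and then 22.7, 20.2 and 24.8 CPM. For mcm6 the values were 92.1, 90.5 and 90.7 CPM and then 61.1, 59.2 and 63 CPM. These 3 subunits were called, with log2 fold changes of -0.68 (SE 0.13), -0.70 (SE 0.15) and -0.58 (SE 0.13) and edgeR adjusted p values of 0.00835, 0.018 and 0.022. The other 3 subunits were not called and were chosen after their values were seen. Their groups did not overlap, as in 21.9% of all genes tested. Their log2 fold changes were -0.80 (SE 0.24) for mcm3, -0.39 (SE 0.14) for mcm4 and -0.33 (SE 0.15) for mcm7. Of the subunits, mcm2 was called without each of the 6 libraries, mcm5 without 3 of them and mcm6 without 2, and the list's count was 1 without CD pre-stress fish 2, CD 6 h fish 1 or CD 6 h fish 2. Across the cell cycle list 3 of 22 tested members were called lower and 0 higher, beside 1.3% and 1.81% of all genes tested. A lower mean was seen in 18 of them, where 11742 of the 23153 genes tested had a higher mean. The list's median log2 fold change was -0.22. Genes of mitosis were not called, with mki67 at 132 to 145 CPM and then 104 to 134 CPM and the cyclin ccnb1 at 18.7 to 21.3 CPM and then 16.4 to 18.6 CPM. Genes picked for their decrease after their values were seen were pola2, a subunit of DNA polymerase alpha (log2 fold change -0.48, SE 0.11), lrwd1, which binds the origin recognition complex (-0.56, SE 0.14), and prkdc, the catalytic subunit of DNA-dependent protein kinase (-0.49, SE 0.12). Each of these 3 calls was made in only 1 of the 6 fits that left out a library, with edgeR adjusted p values of up to 0.111, 0.136 and 0.144.

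**Figure D3:**
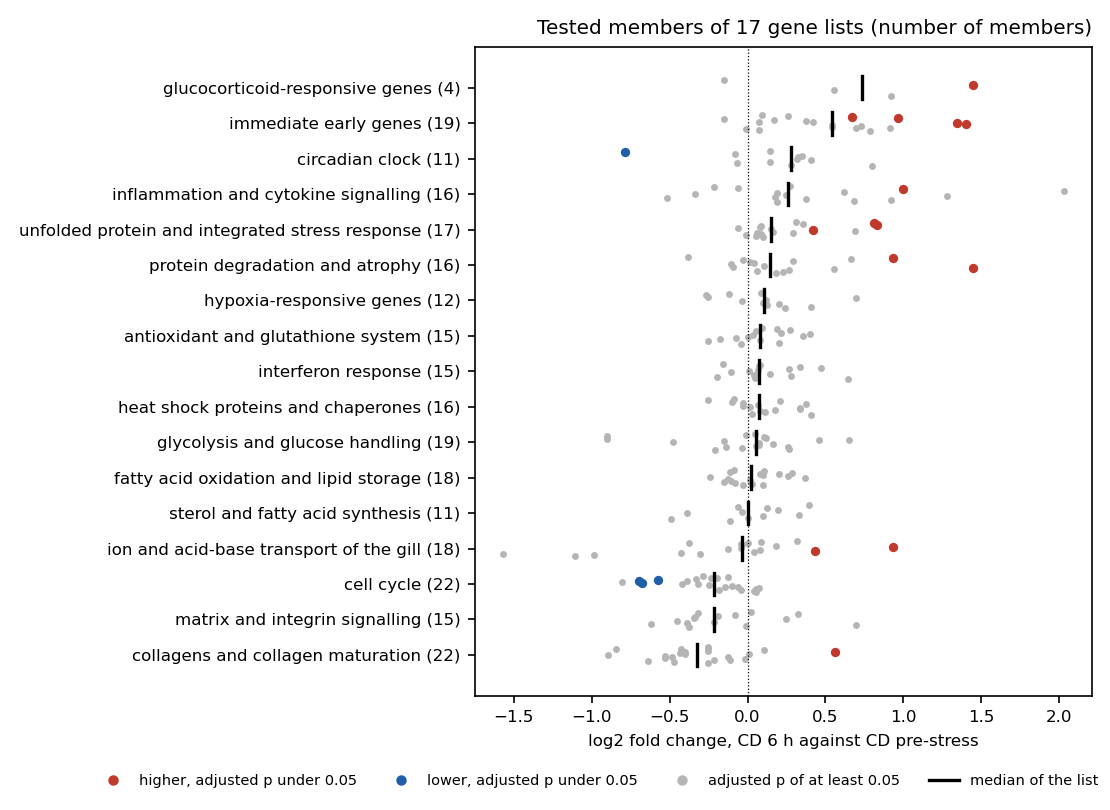
Log2 fold change of CD 6 h against CD pre-stress (horizontal axis) for the tested members of 17 gene lists (vertical axis, number of members in brackets), with called members in red or blue and the list median as a black bar. Called members rose in the immediate early list (4 of 19) and fell in the cell cycle list (3 of 22), beside 1.81% and 1.3% of all genes tested. The medians run from -0.33 for collagens to 0.74 for the 4 glucocorticoid genes.

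The integrin subunit gene itga8 (chromosome 2, 32011836 to 32077861), which pairs with beta 1 to bind fibronectin and nephronectin, was at 47.8, 58.8 and 63.9 CPM before stress and 25, 20.1 and 28.8 CPM at 6 h. The 2 groups were separated by a wide gap, with a log2 fold change of -1.21 (SE 0.16, edgeR adjusted p = 0.000674) and calls without each of the 6 libraries. In the list of collagens and collagen maturation 0 of 22 tested members were called lower by edgeR, beside 1.3% of all genes tested. At an unadjusted edgeR p under 0.05, 8 were lower, beside 17.7% of all genes tested in either direction. DESeq2 called 2 members lower on the 6 CD libraries, beside 244 of 32784 genes. On all 18 it called 3 lower, beside 526 of 34888 genes. Without CD pre-stress fish 1 edgeR called 2 members lower. Of the 22 members 19 had a lower mean at 6 h, where 11742 of the 23153 genes tested had a higher mean. The list's median log2 fold change was -0.33. The most abundant member, col10a1b, a collagen X gene of hypertrophic cartilage, had 6581, 6653 and 9163 CPM before and 4494, 4104 and 5776 CPM at 6 h. Its groups did not overlap, as in 21.9% of all genes tested, and its edgeR adjusted p was 0.0973. The fibrillar collagen gene col1a1a overlapped widely, at 832 to 1828 CPM and 852 to 1558 CPM. The 1 call was an increase of p3h2, a prolyl 3-hydroxylase of collagen, from 13.5 to 15.9 CPM to a range of 21.3 to 22.2 CPM (log2 fold change 0.56, SE 0.15, edgeR adjusted p = 0.0426), which was lost on leaving out any 1 of the 6 libraries. In the matrix and integrin signalling list 0 of 15 members were called by edgeR, beside 3.11% of all genes tested. An unadjusted edgeR p under 0.05 was seen in 7, beside 17.7% of all genes tested. DESeq2 called 0 members on the 6 CD libraries and 1 on all 18. In this list edgeR called 1 member higher without CD pre-stress fish 1 and 1 higher without CD 6 h fish 2.

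The largest decrease among genes with a symbol was that of kcnn1a (chromosome 3, 14827118 to 14890912), a small-conductance calcium-activated potassium channel. It was at 4.53, 4.57 and 3.36 CPM before stress and 0.984, 1.08 and 1.54 CPM at 6 h, or 33 to 57 and 14 to 19 counts. No fish at 6 h came near the unstressed range, and the log2 fold change was -1.79 (SE 0.26, edgeR adjusted p = 0.00111), called without each of the 6 libraries. The gene dvl3, for a Dishevelled protein that relays Wnt signals, was at 3.53 to 4.65 CPM and then 1.55 to 2.6 CPM (log2 fold change -1.07, SE 0.23). The atypical kinesin kif26ab was at 10.1 to 14.5 CPM and then 3.54 to 7.92 CPM (log2 fold change -1.10, SE 0.26). Its paralogue kif26aa and the Wnt5a receptor gene ror2, both chosen after their values were seen, had log2 fold changes of -0.76 (SE 0.15) and -0.58 (SE 0.11). The dvl3 and kif26ab calls were each made without 2 of the 6 libraries in turn, with edgeR adjusted p values of up to 0.0793 and 0.12. The kif26aa call was made without 4 of the 6 and the ror2 call without 5. Fragments that fit several places in the duplicated salmon genome were not counted, so the levels of close copies such as kif26ab and kif26aa are uncertain.

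The homeobox gene meis2a, a cofactor of Hox and Pbx proteins, was at 18.8 to 23.7 CPM and then 11 to 12.7 CPM (log2 fold change -0.85, SE 0.19). The gene cachd1, a relative of the alpha2delta subunits of calcium channels, was at 19.1 to 25.5 CPM and then 9.31 to 14.6 CPM (log2 fold change -0.85, SE 0.19). The groups of meis2a and of cachd1 did not overlap, as the naming rule required. The meis2a call was made without 3 of the 6 libraries and the cachd1 call without 2, with edgeR adjusted p values of up to 0.0886 and 0.11. Other decreases were of genes that stayed under 5 CPM in each of the 6 fish, among them palmdb, for the membrane-associated protein palmdelphin (log2 fold change -1.17, SE 0.29), spsb3b, for a SOCS-box protein of ubiquitin ligases (-1.19, SE 0.31), and psda (-0.97, SE 0.22). The spsb3b call was lost on leaving out any 1 of the 6 libraries, with an edgeR adjusted p of up to 0.155. The psda call was made without 2 of the 6 libraries, with an edgeR adjusted p of up to 0.11. Among increases, mpv17l, for a relative of the inner-membrane protein MPV17, went from 3.97 to 4.65 CPM to a range of 11 to 15.7 CPM (log2 fold change 1.59, SE 0.33), and ppdpf, the pancreatic progenitor proliferation factor, from 2.34 to 4.73 CPM to a range of 8.3 to 9.91 CPM (log2 fold change 1.30, SE 0.31). The ppdpf and palmdb calls were each made in 1 of the 6 fits that left out a library, with edgeR adjusted p values of up to 0.154 and 0.13. The mpv17l call was made in 3 of these fits, with an edgeR adjusted p of up to 0.08.

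Further genes, all chosen after their values were seen, passed the test without each of the 6 libraries in turn. The epidermal growth factor receptor gene egfra was at 17.6 to 20 CPM before stress and 25.5 to 37.9 CPM at 6 h (log2 fold change 0.81, SE 0.15). The linker histone gene h1-10 was at 109 to 117 CPM and then 193 to 236 CPM (log2 fold change 0.93, SE 0.15), and elov7, for an elongase of long-chain fatty acids, at 8.9 to 10.7 CPM and then 17 to 18.2 CPM (log2 fold change 0.88, SE 0.16). These increases stand beside decreases of ankrd50, for an ankyrin repeat protein of endosomal recycling, from 30.3 to 38.9 CPM to a range of 17.5 to 20.9 CPM (log2 fold change -0.81, SE 0.12), and of emid1, for an EMI domain protein of the matrix, from 33.2 to 38.5 CPM to a range of 15.7 to 22.4 CPM (log2 fold change -0.85, SE 0.12).

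Among genes without a symbol, LOC123724424 (ENSSSAG00000121310, chromosome 10, 50589569 to 50591943) had 0 counts in all 3 pre-stress fish and 75, 38 and 25 counts at 6 h, so it was at least 12.6-fold higher against a floor of 3 counts per library. LOC106612710 on chromosome 9 had 6, 8 and 2 counts before stress and 114, 58 and 63 counts at 6 h (log2 fold change 3.61, SE 0.52, edgeR adjusted p = 0.00108). Of those that fell, ENSSSAG00000082623 on chromosome 3 went from 10.3, 11.4 and 4.79 CPM to 1.26, 1.23 and 1.7 CPM, and ENSSSAG00000105021 on chromosome 19 went from 4.87, 4.01 and 4.48 CPM to 0.843, 1.23 and 1.21 CPM. Their log2 fold changes were -2.66 (SE 0.55) and -2.02 (SE 0.35). The first call was made without 3 of the 6 libraries and the second without each of the 6. A further gene below the expression minimum for naming, ENSSSAG00000118211, had a mean of 3.34 CPM before stress and 0 at 6 h (edgeR adjusted p = 0.0494), and it was picked after its values were seen.

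In 5 lists of stress and metabolism no member was called by edgeR, where 3.11% of all genes tested were called, so that lists of this size can hold no call at the background share. An unadjusted edgeR p under 0.05, counted for each list below, was seen in 17.7% of all genes tested. In the hypoxia list 0 of 12 tested genes were called by edgeR, 3 had an unadjusted p under 0.05, and DESeq2 called 0 on the 6 CD libraries and 1 on all 18, while edgeR called 1 without CD pre-stress fish 1. Nearest to the threshold was higd1a, a hypoxia-inducible mitochondrial protein, at 94.9, 83.6 and 49.1 CPM and then 146, 114 and 111 CPM (log2 fold change 0.70, SE 0.19, edgeR adjusted p = 0.054). The groups of higd1a did not overlap, as in 21.9% of all genes tested. Those of vegfab, the vascular growth factor, overlapped at 41.1 to 54.4 CPM and 41.3 to 49.6 CPM. Of glycolysis and glucose handling 0 of 19 genes were called by edgeR or DESeq2, with 3 at an unadjusted p under 0.05. For fatty acid oxidation the same count was 0 of 18, with 2 unadjusted, and for the antioxidant and glutathione list 0 of 15, with 2 unadjusted. In sterol and fatty acid synthesis 0 of 11 were called by edgeR and 2 had an unadjusted p under 0.05, while DESeq2 called 0 on the 6 CD libraries and 1 on all 18. The medians of these 5 lists lay between 0.01 and 0.11 on the log2 scale.

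Marker genes of other cell types were summarised as scores, the mean log2 CPM of the matched markers after centring each gene, and the groups were set against each other by a two-sided exact permutation test, whose smallest p is 0.1 with 3 fish against 3. Skeletal muscle markers, which a gill arch piece can carry, had summed levels of 688 to 1117 CPM before stress and 609 to 860 CPM at 6 h. Their score was -0.89, 0.50 and -0.01 in the unstressed fish and 0.09, -1.58 and -1.61 at 6 h, so 2 of the 3 fish at 6 h were low (exact permutation p = 0.3), and 0 of 14 markers were called by edgeR or DESeq2, with 1 at an unadjusted p under 0.05. The score of cartilage and bone markers was lower in all 3 fish at 6 h, with a difference of -0.41 (exact permutation p = 0.1), while their summed levels overlapped at 8491 to 12701 CPM and 6010 to 8571 CPM, and edgeR called 0 of 10, with 1 at an unadjusted p under 0.05, while DESeq2 called 1. Of all genes tested, edgeR called 3.11%, and 17.7% had an unadjusted edgeR p under 0.05. The cartilage score moves with the collagen list, with which it shares members, and its part in the lower collagen means was not tested. Scores differed by 0.28 for erythrocytes (exact permutation p = 0.2) and -0.32 for endothelial and pillar cells (p = 0.2). Of the 9 endothelial and pillar markers edgeR called 1, beside 3.11% of all genes tested. The called marker was pecam1a, an endothelial adhesion molecule chosen after its values were seen. It was lower at 6 h (log2 fold change -0.51, SE 0.12), and its call was made without 2 of the 6 libraries. The score differences were 0.13 for pavement and other epithelial cells (exact permutation p = 0.1), 0.36 for 2 mucous cell genes (p = 0.1), 0.05 for ionocytes (p = 0.7), 0.29 for T cells (p = 0.3), -0.31 for B cells (p = 0.2) and 0.04 for macrophages and neutrophils (p = 1). The 2 mucous cell genes went opposite ways, with log2 fold changes of 0.86 for AGR2 and -0.14 for creb3l1, and neither was called by edgeR. The mucous score difference thus reflects AGR2. Among the 4 genes of the T cell score was gata1, which the erythrocyte list also holds, with the highest log2 fold change of the 4 (0.44). The T cell score is therefore not specific to T cells and not independent of the erythrocyte score.

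**Figure D4:**
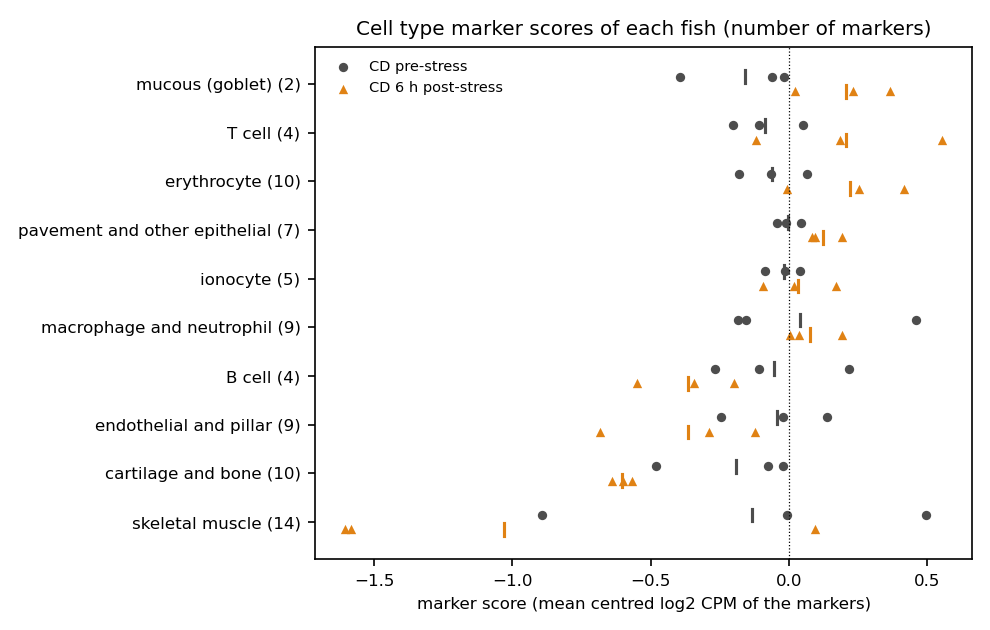
Marker score, the mean centred log2 CPM of the markers (horizontal axis), of each CD fish for 10 cell type lists (vertical axis, number of markers in brackets), with circles for pre-stress and triangles for 6 h post-stress and bars for group means. Skeletal muscle shows the widest spread, with the 6 h fish at 0.09, -1.58 and -1.61, and the cartilage, mucous and pavement scores do not overlap between the groups. The mucous score joins genes that changed in opposite directions.

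The genes that fell were longer than the genes that rose. The median gene span was 53058 bp for the 301 lower genes, 14715 bp for the 418 higher genes and 17322 bp for all genes tested, and the median summed exon length was 5185, 3505 and 3667 bp. When the genes were split into 5 classes of near-equal size by exon length, 0.453% were called lower in the shortest class and 2.51% in the longest. A trend with exon length also ran through all genes, the median log2 fold change being 0.06 in the shortest and -0.07 in the longest of these 5 classes. It was strongest in 1 fish of each group, CD 6 h fish 2 with medians from 0.13 to -0.13 and CD pre-stress fish 3 with medians from -0.08 to 0.11, where the other 4 fish stayed within 0.04 of 0 in both classes, to 2 decimals. After removal of this trend, an adjustment chosen after seeing the data, 530 genes were called higher and 313 lower. The called genes were spread over the genome, with 2.51% to 3.95% of the tested genes of each of the 16 chromosomes.

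The LAN4 fish give a second comparison of 6 h with pre-stress that shares no library with the first. Both comparisons came from the same fit of all 18 libraries, so the spread behind the calls of each also rests on the fish of the other. The calls in the 2 diets are therefore not independent. Of the 418 genes called higher in CD, 408 had a higher mean at 6 h in LAN4 as well and 249 were called there, which is 59.6% of the CD calls and 45.5% of the LAN4 calls. Of the 301 genes called lower, 290 had a lower mean in LAN4 and 120 were called, 39.9% of the CD calls and 36.5% of the LAN4 calls, and 0 genes were called in opposite directions. In all, 3.78% of the genes tested were called in LAN4, and 15711 of the 23153 had the same sign in both diets. The log2 fold change of slc25a25a was 4.15 (SE 0.43) in LAN4, that of hs90a 2.11 (SE 0.25) and that of foxo3b 1.31 (SE 0.19). The clock-related rorca fell in LAN4 too, with -0.89 (SE 0.09) beside -0.78 in CD, as did mcm2 with -0.69 beside -0.68. For palmdb the log2 fold change was 0.25 in LAN4 and -1.17 in CD, and for spsb3b 0.05 and -1.19, and the test of the difference gave an edgeR adjusted p of 0.996 for each, with unadjusted p values of 0.00193 and 0.0118. Across all genes the change differed between the diets for 1 gene, LOC123724424, which is 0.00432% of those tested, and 987 or 4.26% had an unadjusted p under 0.05.

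**Figure D5:**
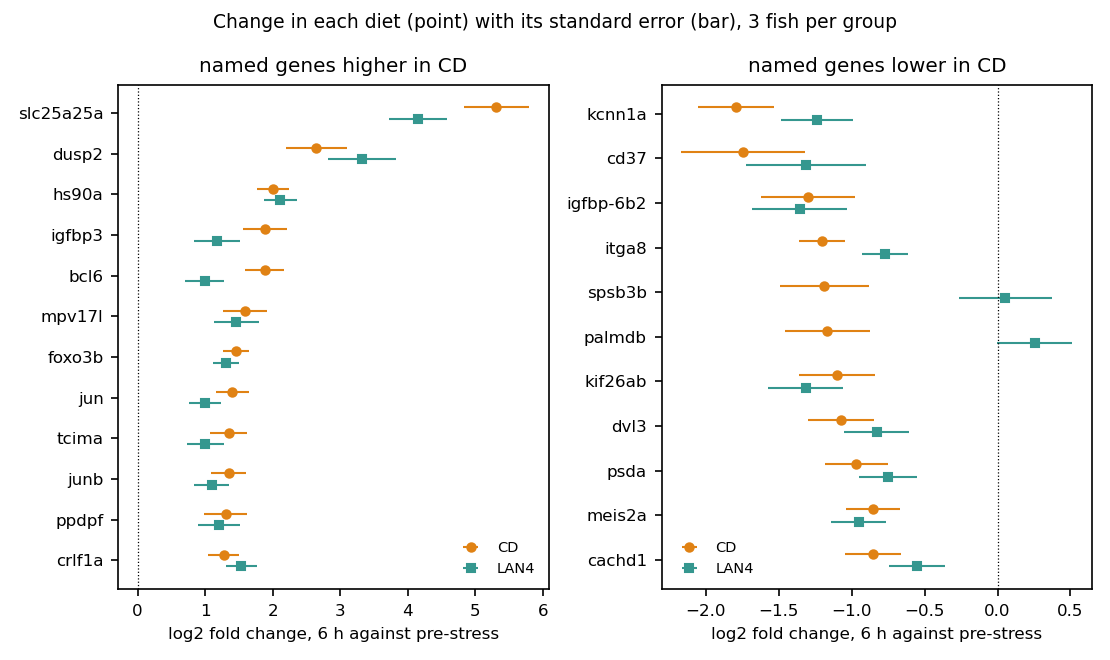
Log2 fold change of 6 h against pre-stress (horizontal axis) with its SE as a bar, in CD (circles) and LAN4 (squares), for the named genes with the largest changes (vertical axis), each from 3 fish per group. In LAN4 the 12 genes that rose in CD lie between 0.99 and 4.15, and of those that fell spsb3b and palmdb lie at 0.05 and 0.25.

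The 1 h fish of the CD group place these levels in time, with the limits that they share the pre-stress fish with the 6 h comparison and were read on another lane, which cannot be told apart from time. At 1 h junb had a mean of 197 CPM (SD 55.3, n = 3), against 33.8 CPM at pre-stress and 86 CPM at 6 h. The level of tisb was 582 CPM at 1 h (SD 59.5) against 156 CPM before and 248 CPM at 6 h. For jun the means were 21.8 CPM at 1 h and 21.5 CPM at 6 h. A different order was seen for hs90a, with 22.5 CPM at 1 h (SD 2.43) against 27 CPM before and 109 CPM at 6 h, and for foxo3b, with 25.3 CPM at 1 h (SD 3.67) against 22 and 59.9 CPM. The levels at 1 h were also close to pre-stress for ulk1a, with 57.1 CPM beside 53.8, for rorca, with 32.1 CPM beside 32.7, and for mcm2, with 87.1 CPM beside 95.8. The difference between 6 h and 1 h was not tested.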

How the data were processed

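Gill RNA of 3 fish per diet and time was sequenced as stranded paired-end mRNA libraries. The authors counted fragments per Ensembl gene on SSAL_v3.1 with featureCounts (Subread 1.5.1 per the file headers), reverse-stranded, leaving out fragments with several hits, and deposited raw counts with no normalization. Genes outside the 16 chromosomes were not used, since the 6 h counts end partway through the others. Libraries were scaled by TMM on these genes, and 23153 genes passed edgeR's expression filter over the 6 groups. Counts of 18 libraries were fitted with 1 mean per group by the quasi-likelihood test of edgeR 4.0.16 (R 4.3.3, limma 3.58.1), with Benjamini-Hochberg adjustment and a threshold of 0.05. CPM were computed with the TMM-scaled library sizes, and the SE of a log2 fold change is its size divided by the square root of F.

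RefSeq symbols were assigned by a reciprocal overlap of at least 0.5 (25266 genes matched, 6621 with a symbol). Named genes had to be called, not overlap between the groups and reach 1 on the log2 CPM scale in the mean, and the 12 largest changes with a symbol and 2 without were taken per direction, with up to 4 called members per gene list. Of these genes, 1 is not reported here. List members that were not called are also given with values, and other genes are marked as chosen later. The comparison, its members and the lists were chosen with earlier results of these data known. Marker scores were compared by exact permutation tests. Alternatives were DESeq2 (1.42.0) and its size factors, no filter, fewer libraries, a fold threshold, a replicate block, each fish left out and, chosen after seeing the data, an exon-length adjustment. The labels do not say that the replicates came from separate tanks, so p-values measure the spread between fish. In the main edgeR fit that spread is pooled over all 18 libraries, so it also rests on the LAN4 and 1 h fish. The test was also run on simulated counts with the same spread for every gene, which does not bear on calls that hinge on single fish.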

Additional observations from a re-analysis of the deposited data

Results flagged for a closer look

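LOC123724424 was the gene whose change from pre-stress to 6 h differed between the diets, with a LAN4 minus CD difference of -8.22 on the log2 scale (SE 1.04, edgeR adjusted p = 0.0189). It had 0 counts in the 3 CD pre-stress fish and 22 to 75 counts in each of the other 15 libraries. In LAN4 its mean level was 2.77 CPM before stress and 2.99 CPM at 6 h, a log2 fold change of 0.12. Its mean in CD fish at 1 h was 3.78 CPM. The fitted difference depends on the prior count, since the CD pre-stress group is at 0, and without any 1 of the CD pre-stress fish no gene was called for this difference.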

How the results depend on the processing

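No gene called in the comparison changed sign in any of the 16 alternatives, and 16 genes, all higher, were called in each of them. The alternatives refit the same counts, and the groups did not overlap in 707 of the 719 called genes. A kept sign was thus largely set by the choice of genes and adds no support of its own. Fewer libraries gave fewer calls, with 77 higher and 30 lower on the 6 CD libraries and 243 and 180 on the 12 libraries of pre-stress and 6 h, where 0 genes differed between the diets. DESeq2 on all 18 libraries gave 718 and 526, with 7 genes that differed between the diets. A test against a 1.5-fold change left 21 and 2. Leaving out each fish in turn gave 154 to 388 genes higher, 78 to 321 lower and 0 to 1 that differed between the diets. The deviations of same-numbered CD fish had correlations of -0.17, -0.04 and 0.08, and those of unlike-numbered CD fish ran from -0.11 to 0.15. With 3 fish per group these values cannot decide whether the numbers pair the fish. A replicate block gave 384 and 263 on all 18 libraries, with 0 genes that differed between the diets, and 71 and 19 on the 6 CD libraries. The 67 genes followed by name include mcm3, mcm4 and mcm7, which were not called in the main fit and had no call to lose. Of the 67, 42 lost the call on the 6 CD libraries alone. The cause of these differences was not tested. The lowest levels given for named genes rest on fewer than 10 counts in a library, as for igfbp3 and slc25a25a before stress, and counting error is then large beside the value.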
